A study of Mus musculus with 11 samples.

Results

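Organoids re-derived from primary tumours of immunocompetent C57Bl6 recipients were compared with organoids re-derived from tumours of immunodeficient RAG2KO recipients, 3 libraries against 3, which are 6 of the 11 samples of the series. The members were taken from the labels alone, by recipient, and no measured value was used. All 6 are colon cancer organoids of the mouse with the genotype AKP, in which tumour driver genes, Apc and Trp53 among them, are altered, and all descend from the same kind of naive culture, placed in the colon through a colonoscope. Per the submitters' design text, the tumour-derived cultures were passaged until they held cancer cells alone, so the RNA is that of cells some passages away from the recipient. The 3 libraries of naive AKP organoids, which had no recipient, are given beside the comparison and entered the model fit. So did the constitutive and the inducible SOX17OE libraries, naive AKP organoids carrying a lentiviral SOX17 construct. Their levels are given for a few genes only. Neither the age of the animals nor the specific alleles are given in the sources used here. The title of each tumour-derived sample has a different number, possibly an animal's, but nothing states that the mice were different ones. The p-values therefore cover only the spread between these samples, that among the naive replicates included.

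RAG2 is part of the recombinase that assembles antigen receptor genes, and a mouse without it has no mature T or B cells, while its innate cells, natural killer cells among them, are present. Tumour cells growing in an intact host meet T cells and the interferon gamma that these release, which raises antigen presentation genes in the tumour cell. Type I interferons act through a separate receptor and induce antiviral genes such as Isg15 and the Oas and Ifit families. The question of the comparison is which genes of the cancer cells differ, in culture, according to the immune status of the mouse they grew in.

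Library totals ran from 17541721 to 19024262 expected counts in the C57Bl6 and from 15412611 to 17656757 in the RAG2KO group, and 13720 of 23224 listed genes had enough counts to test. Values below are in CPM, the count scaled to the TMM-normalised library size, and a log2 fold change is C57Bl6 over RAG2KO. The epithelial genes were present throughout, with Epcam between 843.1 and 1339 CPM and Cdx2, the intestinal homeobox factor, between 38.3 and 58.1 CPM. Summed over 16 T, B and NK cell markers, the level was 0.524 to 1.74 CPM in the C57Bl6 and 0.944 to 1.68 CPM in the RAG2KO libraries, and 8 of the 16 were at 0 in all 6, Cd3g and Ncr1 among them. The sums of 13 fibroblast and smooth muscle markers were 1.10 to 2.86 CPM and 1.31 to 10.3 CPM, those of 9 endothelial markers 4.596 to 9.65 and 4.38 to 7.65 CPM, and those of 12 myeloid markers 44.4 to 73.0 and 57.9 to 84.7 CPM. Of the 13720 genes, 508 lie on chromosome 13, and in C57Bl6 replicate 2 these had a median log2 difference of -0.60 from the other 5 libraries, while in RAG2KO replicates 1 and 3 it was 0.30 and 0.17. The median log2 fold change of that chromosome was -0.29.

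Rn45s, the ribosomal RNA precursor, and transcript length both moved with the recipient. Rn45s took 3.77, 2.21 and 2.59% of the counts in the C57Bl6 libraries and 6.56, 8.10 and 8.54% in the RAG2KO libraries, with no overlap (log2 fold change -1.53 with SE 0.296, adjusted p = 0.00765). Genes with mean CPM of at least 1 were split into 10 bins of equal size by the longest transcript of the GENCODE M21 annotation. In the bin of shortest transcripts, up to 1388 bases, the median log2 fold change was -0.379, with 1.6% of genes called higher and 29.9% called lower. In the bin of longest transcripts, from 6726 bases, the median was 0.363, with 27.5% called higher and 3.8% called lower. The per-library medians of the shortest bin were -0.262, -0.027 and -0.255 in the C57Bl6, 0.266, 0.129 and 0.178 in the RAG2KO and 0.023, -0.096 and -0.286 in the naive libraries, as log2 differences from the mean of all 11. The recipients did not overlap there, the C57Bl6 replicates 1 and 3 lay lowest with naive replicate 3, and C57Bl6 replicate 2 lay near 0. Because of this trend, the main gene lists below are also given with the length trend of each library taken out as an offset, a choice made after seeing the data. Taking the trend out left bin medians of -0.034 to 0.040, which the removal brings near 0 by construction. Whether the RNA preparation or the cells produced the trend was not tested.

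**Figure D1:**
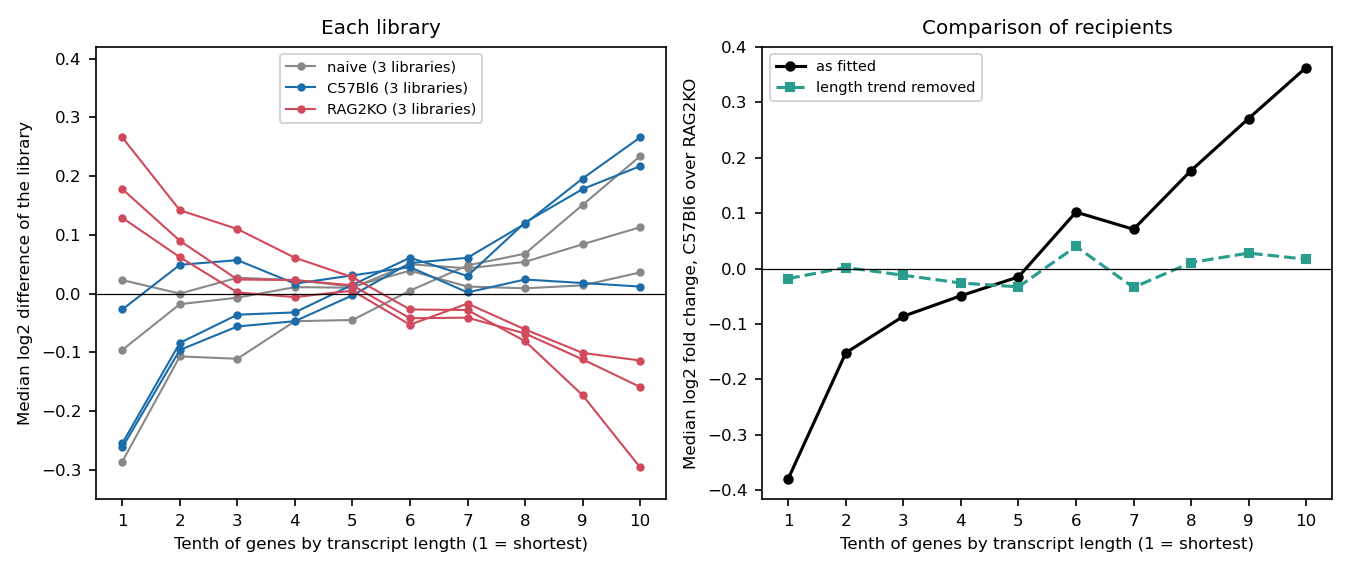
Left, median log2 difference of each library from the mean of all 11 libraries (y) in 10 bins of genes ordered by transcript length (x), 1 line per library, for 3 naive, 3 C57Bl6 and 3 RAG2KO libraries. Right, median log2 fold change of C57Bl6 over RAG2KO (y) by the same bins, as fitted and with the length trend removed. The fitted medians run from -0.379 to 0.363 and the others, near 0 by construction, stay between -0.034 and 0.040.

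Over all genes, 3295 of 13720 (24.0%) passed the threshold of an adjusted p under 0.05, 1677 (12.2%) higher and 1618 (11.8%) lower in organoids from C57Bl6 recipients. The share of these calls that were higher was 50.9%, but it was 36.3% with upper quartile scaling (1150 higher, 2017 lower) and 63.7% with library totals (2263 higher, 1290 lower). These scalings moved the median fold change of all genes from 0.001 to -0.100 and 0.094. Libraries did not overlap in 5460 genes (39.8%), among them 3227 of the 3295 that passed. With a library left out the count was lowest without C57Bl6 replicate 3 (1857) or RAG2KO replicate 3 (2018), and 1430 genes were called in the fit of all libraries and in each of the 6 fits with a library left out. With the length trend removed 2832 genes passed (20.6%; 1307 or 9.53% higher, 1525 or 11.1% lower), and 2340 of them were also among the 3295. When the Rn45s share, on the log2 scale, was added as covariate 2 genes passed, Trim44 and Ms4a8a, and the median standard error of the fold change rose from 0.208 to 0.443. Rn45s share and recipient cannot be told apart in these 6 libraries. Regressed on their values without the covariate, the 3295 fold changes gave a slope of 0.878, and 3248 kept their sign. Against the naive libraries, which both comparisons share, 2106 genes (15.3%) passed for C57Bl6 and 4010 (29.2%) for RAG2KO.

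The first principal component of the 6 libraries held 45.6% of the variance and separated the recipients, with 39.1 to 50.6 for C57Bl6 and -52.9 to -35.1 for RAG2KO. The 3 lines of a recipient differed from each other by a median SD of 0.241 (C57Bl6) and 0.248 (RAG2KO) on the log2 CPM scale, against 0.202 among naive replicates. The number of genes with an SD over 1 was 958 in the C57Bl6, 945 in the RAG2KO and 171 in the naive group. Large differences between lines of 1 recipient were therefore common, and the values of each library are given below. The naive replicates, which varied less, entered the estimate of spread behind the p-values. With the 6 tumour-derived libraries alone 2288 of 12502 tested genes passed.

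Trim44, which encodes a TRIM-family protein with deubiquitinase activity, had the smallest adjusted p among the genes that were higher. Its 3 C57Bl6 libraries held 48.7, 47.5 and 36.1 CPM, the RAG2KO libraries 2.43, 2.22 and 2.06 and the naive libraries 2.64, 2.103 and 1.81 (log2 fold change 4.3003 with SE 0.21, adjusted p = 9.10e-06). The RAG2KO lines sat at the naive level and the C57Bl6 lines far above both, with little spread in any of these groups. The SOX17OE libraries, which had no recipient, held 0 CPM (constitutive) and 22.9 CPM (inducible). Mmp14, the membrane-anchored matrix metalloprotease that activates pro-MMP2, held 19.8, 9.31 and 62.2 CPM in the C57Bl6 libraries against 0.0674, 0.234 and 0.0624 CPM in the RAG2KO libraries (log2 fold change 7.86 with SE 0.91, adjusted p = 0.002001). It was present in each C57Bl6 line at differing levels and was close to the limit of detection in the RAG2KO lines, with 1775 counts against 6, and in the naive lines, with 1 count. Efemp1, a secreted fibulin of the extracellular matrix, had 357 counts against 1, a ratio of 302.2 (95% interval 53.9 to 11970, which covers counting error only; adjusted p = 0.00343). Bicc1, an RNA-binding protein, had 295 counts against 2, a ratio of 124.8 (interval 34.3 to 1036; adjusted p = 0.00788), and C57Bl6 replicate 2 held most of them, with 0.838, 13.97 and 1.52 CPM in the 3 lines.

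Gata5, a zinc finger transcription factor of the endoderm, held 21.5, 0.898 and 2.88 CPM against 0.202, 0.117 and 0.0624 CPM (log2 fold change 5.99 with SE 1.27, adjusted p = 0.01103), and C57Bl6 replicate 1 stood above the other C57Bl6 lines. Cadps, a regulator of dense-core vesicle release, held 0.262, 6.28 and 14.3 CPM against 0.135, 0.117 and 0.187 CPM (log2 fold change 5.51 with SE 1.24, adjusted p = 0.0136). Its lowest C57Bl6 library was only just above the highest RAG2KO library. Rnf217, an E3 ubiquitin ligase gene, was more even, at 8.28, 10.2 and 10.4 CPM against 0.2696, 0.642 and 0.499 CPM (log2 fold change 4.32 with SE 0.61, adjusted p = 0.00305). Lphn2, an adhesion G protein-coupled receptor, held 36.4, 31.4 and 21.5 CPM against 1.55, 3.15 and 1.06 CPM, and 0.0715, 0.0438 and 0 CPM in naive organoids (log2 fold change 3.94 with SE 0.42, adjusted p = 0.00135). Both tumour-derived groups were above naive, the C57Bl6 lines more so. The other genes among the 12 largest rises were the zinc finger gene Zfp518b (4.699), the organic anion transporter Slco3a1 (4.43), the ciliary gene Dzip1l (4.09) and the cornified envelope gene Cnfn (4.02), with adjusted p from 0.00255 to 0.011004. With voom, Mmp14 (adjusted p = 0.0513), Gata5 (0.0802) and Cadps (0.217) did not pass.

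Mt4, a metallothionein of stratified epithelia, had the largest fall among the genes that kept their call with any 1 library left out. It held 7.96, 4.26 and 8.18 CPM in the C57Bl6, 356, 456 and 826 CPM in the RAG2KO and 268, 229 and 84.8 CPM in the naive libraries (log2 fold change -6.32 with SE 0.56, adjusted p = 0.00111). The C57Bl6 lines were below every other library, and the RAG2KO lines were above every naive one. Mgp, matrix Gla protein, an inhibitor of calcification, held 5.66, 3.703 and 10.4 CPM against 247, 631 and 331 CPM, with 4.79, 6.004 and 4.0997 CPM in naive organoids (log2 fold change -5.93 with SE 0.49, adjusted p = 0.001001). Here the C57Bl6 lines were near naive and the RAG2KO lines stood above both. The SOX17OE libraries, which had no recipient, held 193 (constitutive) and 96.4 CPM (inducible) of Mgp. Of Mt4 they held 3722 and 2768 CPM. Ms4a8a, a membrane-spanning gene of differentiated colonocytes, held 1.78, 1.18 and 1.97 CPM against 38.2, 59.5 and 53.9 CPM, with 76.8, 83.6 and 92.1 CPM in naive organoids (log2 fold change -4.93 with SE 0.24, adjusted p = 9.10e-06). The RAG2KO lines were also below naive (log2 fold change -0.74, adjusted p = 0.0172), and the C57Bl6 lines were below them by more (-5.67, adjusted p = 3.61e-06).

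Lmo2, a LIM-domain cofactor of GATA factors, held 0.105, 0 and 0.404 CPM against 3.44, 18.2 and 3.31 CPM (log2 fold change -5.53 with SE 1.02, adjusted p = 0.00672), and RAG2KO replicate 2 was highest. Ptn, the growth factor pleiotrophin, held 0.0524, 0.449 and 1.01 CPM against 8.83, 38.5 and 13.7 CPM, with 10.6, 8.02 and 3.72 CPM in naive organoids (log2 fold change -5.303 with SE 0.82, adjusted p = 0.00395). Ush1c, harmonin, a scaffold of the brush border, held 1.1004, 0.673 and 0.455 CPM against 5.998, 10.4 and 34.5 CPM, with 17.5, 15.5 and 23.1 CPM in naive organoids (log2 fold change -4.503 with SE 0.68, adjusted p = 0.00369). In both genes the C57Bl6 libraries lay below all the others. Edn3, the ligand endothelin 3, held 0.105, 0.393 and 0.404 CPM against 3.64, 1.99 and 13.2 CPM and 0.0715, 0.0438 and 0.0953 CPM in naive organoids (log2 fold change -4.35 with SE 0.79, adjusted p = 0.00575). The hair-type genes Krtap3-3 (-5.56) and Krt32 (-4.25), the epithelial death gene Dapl1 (-4.73), the GTPase regulator Arhgdib (-4.44) and the mannosidase Man1c1 (-4.26) completed the 12 largest falls, with adjusted p from 0.00144 to 0.0169. With voom, Krt32 did not pass (adjusted p = 0.0639). Krtap3-3 belongs to a family of similar genes, so its reads may have been divided between copies.

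**Figure D2:**
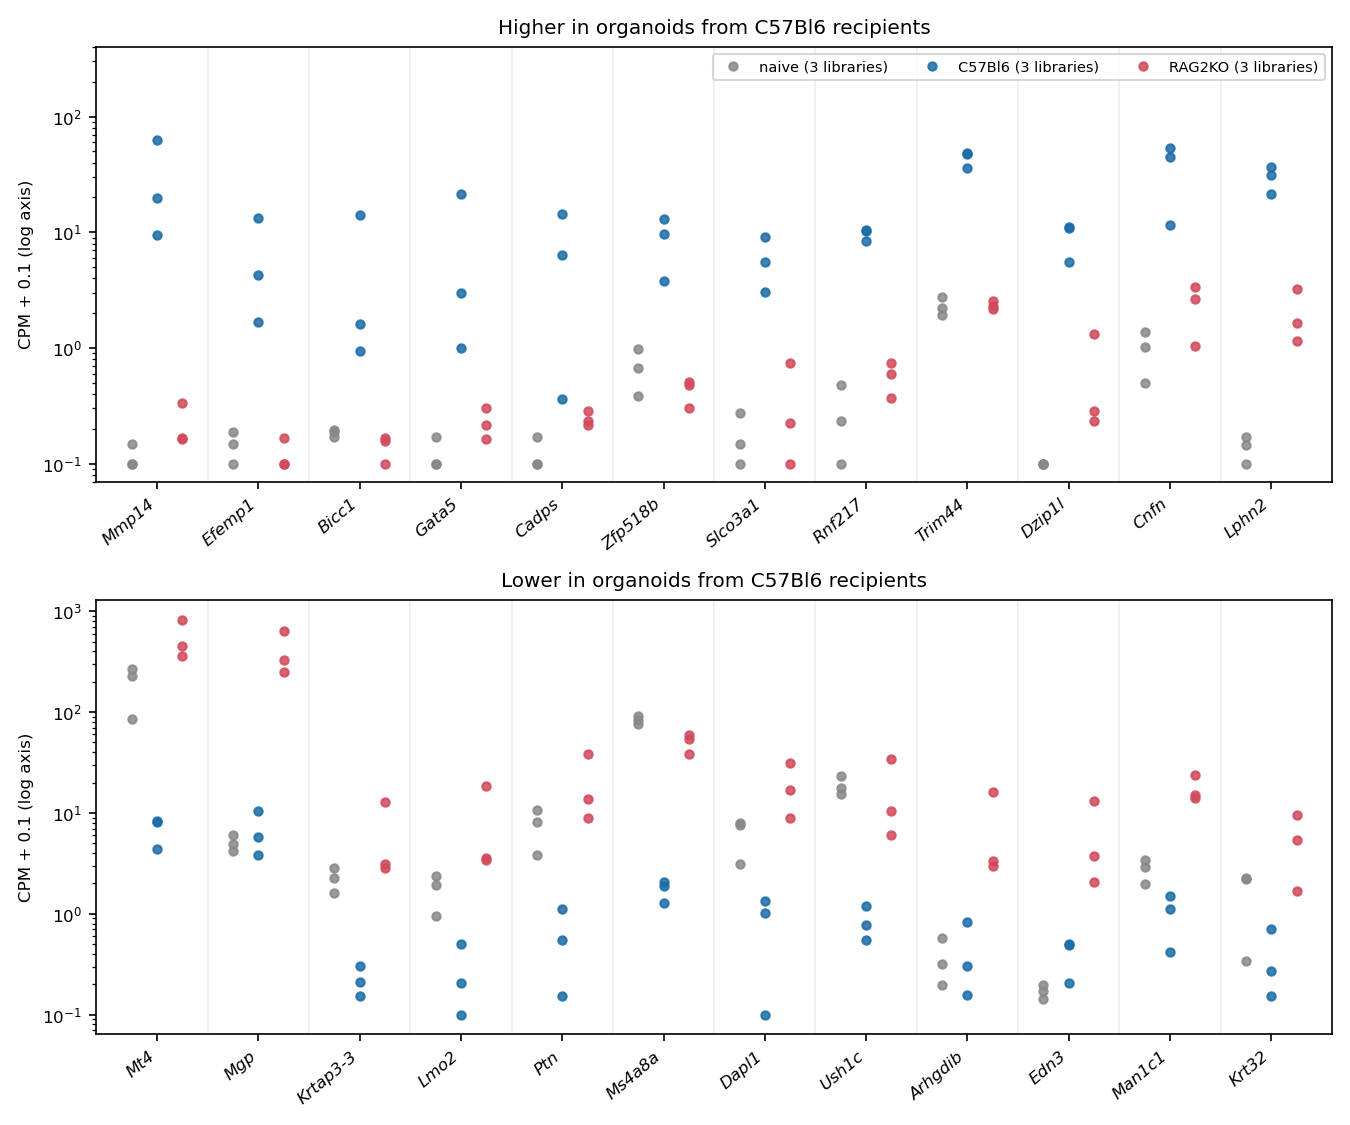
Levels of the 12 genes with the largest rise (top) and the 12 with the largest fall (bottom) in C57Bl6 against RAG2KO organoids, as CPM + 0.1 on a log axis, 1 dot per library for 3 naive, 3 C57Bl6 and 3 RAG2KO libraries. The 24 genes were chosen among those in which the 3 C57Bl6 and 3 RAG2KO libraries do not overlap. The naive dots lie with 1 group, between the groups or outside both.

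Among 49 gene lists with at least 5 tested members, 22 had a share of called members above the 24.0% of all genes. The highest shares of members higher in C57Bl6 were those of the ATF4 amino acid response (17 of 28), mitosis and spindle genes (16 of 28), YAP/TAZ targets (11 of 24), heat shock genes (8 of 18) and DNA replication genes (12 of 30), beside 12.2% over all genes. The highest share of members lower in C57Bl6 was that of type I interferon induced genes (14 of 28), beside 11.8%. List medians close to 0 changed sign with the scaling. With upper quartile scaling the medians of interferon receptors and JAK-STAT signalling (0.071 to -0.036), NF-kappaB targets (0.043 to -0.056), Wnt genes (0.002 to -0.097), epithelial junction genes (0.09 to -0.017), Notch genes (0.103 to -0.01), glycolysis genes (0.084 to -0.015) and zinc genes (0.064 to -0.026) turned negative. With library totals those of chemokines (-0.064 to 0.025), immune inhibitory ligands (-0.055 to 0.038) and cholesterol synthesis genes (-0.024 to 0.07) turned positive.

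**Figure D3:**
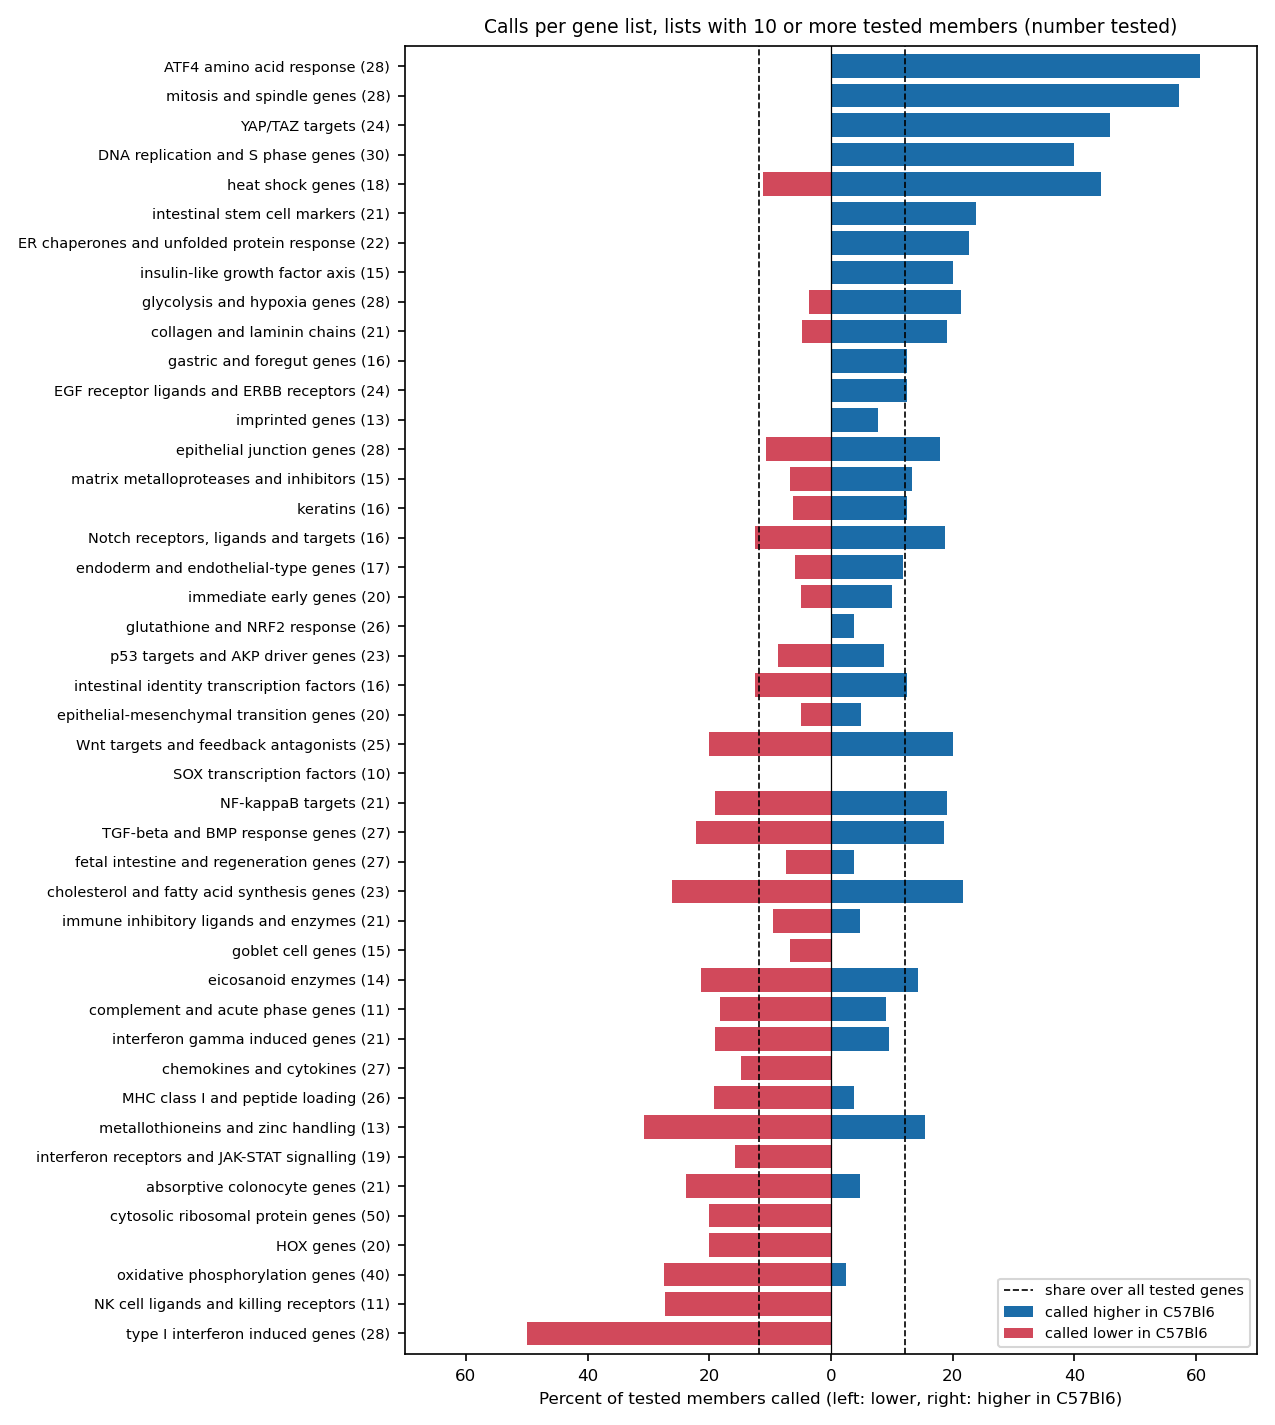
Percent of tested members of each gene list (rows, number tested in brackets) that were called higher (right) or lower (left) in C57Bl6 than in RAG2KO organoids at an adjusted p under 0.05, for lists with at least 10 tested members. Dashed lines mark the shares over all tested genes, 12.2% higher and 11.8% lower. ATF4 amino acid response genes lie farthest to the right (17 of 28) and type I interferon induced genes farthest to the left (14 of 28).

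Type I interferon induced genes were lower in organoids from C57Bl6 than from RAG2KO recipients. Of the 28 tested, 14 fell, 0 rose and 14 did not pass, the median log2 fold change was -1.504 against 0.001 over all genes, and 26 of 28 had a negative value. Usp18, the protease that removes ISG15 and dampens the type I receptor, held 0.943, 3.14 and 8.08 CPM in the C57Bl6 and 23.5, 58.3 and 54.7 CPM in the RAG2KO libraries, with 0.643, 0.745 and 0.8104 CPM in naive organoids (log2 fold change -3.48 with SE 0.63, adjusted p = 0.00675). The RAG2KO lines were above the C57Bl6 lines, and the C57Bl6 lines ran from the naive level upwards. Rtp4, an interferon-induced receptor chaperone, held 0.996, 1.85 and 1.46 CPM against 4.45, 31.01 and 12.7 CPM (log2 fold change -3.48 with SE 0.63, adjusted p = 0.00672). Oas1a, which makes the 2-5A second messenger that activates RNase L, held 2.93, 6.51 and 4.65 CPM against 15.8, 30.4 and 14.7 CPM (log2 fold change -2.11 with SE 0.34, adjusted p = 0.00395). Reads of Oas1a may be shared with its near copies. The cytosolic RNA sensor gene Ddx58 (RIG-I) held 8.91, 10.8 and 10.96 CPM against 17.99, 43.03 and 22.2 CPM (log2 fold change -1.44 with SE 0.29, adjusted p = 0.00877). In these genes RAG2KO replicate 2 was the highest of the naive and tumour-derived libraries and RAG2KO replicate 1 or 3 the lowest of its group. The constitutive SOX17OE library, which had no recipient, held 27.5 (Usp18), 73.1 (Rtp4), 57.5 (Oas1a) and 42.8 CPM (Ddx58). In the inducible SOX17OE library the levels were 3.21, 1.98, 2.33 and 9.97 CPM. Only the constitutive of these cultures, 1 library without a replicate, held these genes at high levels, and the cause was not tested.

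The list depended on single libraries. It had 6 calls without C57Bl6 replicate 3, 7 without RAG2KO replicate 2, 7 without RAG2KO replicate 3 and 22 without RAG2KO replicate 1, and 6 of the 14 kept their call in all 6 of these fits. DESeq2 called 21 and voom 13. With the length trend removed 12 fell and 1 rose, with a median of -1.544. Against naive, 3 of the 28 were higher and 1 lower in the C57Bl6 group, and 17 were higher and 0 lower in the RAG2KO group. Some host cell markers ran the same way as the list. The 6 tested myeloid markers had a median of -0.573, and their sums, given above, overlapped between the recipients. In naive organoids the sums were 36.5 to 46.6 CPM. The 4 tested fibroblast markers were all lower in value, with a median of -1.316. By edgeR 0 myeloid and 0 fibroblast markers passed, with 1 of each at an unadjusted p under 0.05, and DESeq2 and voom called 0. T, B and NK cell markers summed to under 2 CPM in each library, and Cd79b, a B cell receptor subunit, was called lower, at 0.314, 0.168 and 0.0505 CPM against 0.607, 0.584 and 1.12 CPM and 0.643, 0.657 and 0.524 CPM in naive organoids (log2 fold change -2.08 with SE 0.66, adjusted p = 0.0451), a call that held without C57Bl6 replicate 1 and was lost without each of the other 5 libraries (adjusted p from 0.0555 to 0.131). The part of these markers in the result was not tested.

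The windows of 250 bases before the transcript start of 2 of these genes are shown because the members moved together and both windows hold the core of the interferon-stimulated response element, searched on both strands as GAAA and GAAA with any 2 bases, NN, between them. Oas1a came from the list's leading genes, and Isg15, which encodes the ubiquitin-like modifier that Usp18 removes (6.24, 7.01 and 4.29 CPM against 7.75, 38.01 and 19.9 CPM, log2 fold change -1.91 with SE 0.55, adjusted p = 0.0341), was chosen after its values were seen. The call of Isg15 ended with the length trend removed (adjusted p = 0.104) and without each library but RAG2KO replicate 1 (adjusted p from 0.0563 without C57Bl6 replicate 2, through 0.0644 without RAG2KO replicate 3, 0.0705 without C57Bl6 replicate 1 and 0.101 without C57Bl6 replicate 3, to 0.104 without RAG2KO replicate 2). Sequences are those of RefSeq on GRCm38.p6, 5′ to 3′ on the gene's strand, with the matches in capitals. The Isg15 window is chr4:156200819-156201068 and the Oas1a window chr5:120907526-120907775, both on the minus strand.
Isg15: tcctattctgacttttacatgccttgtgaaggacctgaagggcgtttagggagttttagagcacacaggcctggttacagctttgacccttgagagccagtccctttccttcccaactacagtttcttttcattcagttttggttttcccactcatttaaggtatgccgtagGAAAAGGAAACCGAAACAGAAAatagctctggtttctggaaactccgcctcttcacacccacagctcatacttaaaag
Oas1a: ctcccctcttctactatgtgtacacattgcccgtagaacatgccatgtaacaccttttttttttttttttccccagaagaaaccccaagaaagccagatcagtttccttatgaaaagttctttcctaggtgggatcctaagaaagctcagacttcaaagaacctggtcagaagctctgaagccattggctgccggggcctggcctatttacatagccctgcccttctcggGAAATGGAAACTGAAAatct
The matches start 78, 72 and 66 bases before the start of Isg15 and 20 and 14 bases before that of Oas1a, and those within a gene overlap each other. Of the 14 members that fell, 10 had a window in the table and 3 held the motif (Isg15, Oas1a and Oas1g). Of the 14 tested members that did not pass, 10 had a window and 5 held it. Over all 32536 windows of this length 969 (2.98%) did. A match is a string of letters and does not show that a factor bound there.

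Few receptor and signalling genes upstream of this response passed. Of 19 interferon receptor and JAK-STAT genes 3 fell and 0 rose (15.8%, below the 24.0% of all genes; 5 calls without RAG2KO replicate 1 and 1 without RAG2KO replicate 2), and 5 fell with the length trend removed. Irf9, the DNA-binding subunit of the complex that type I interferon activates, held 14.8, 12.7 and 11.1 CPM against 17.99, 55.5 and 42.3 CPM (log2 fold change -1.59 with SE 0.35, adjusted p = 0.01197). Ifngr2, the second chain of the interferon gamma receptor, held 77.4, 49.5 and 80.9 CPM against 104, 125 and 98.4 CPM (log2 fold change -0.66 with SE 0.19, adjusted p = 0.02998), and it no longer passed without RAG2KO replicate 2 (adjusted p = 0.0865), with library totals (0.0570) and with the 6 tumour-derived libraries alone (0.0529). Ifngr1, the ligand-binding chain, held 80.3, 73.5 and 57.8 CPM against 62.7, 62.6 and 55.4 CPM and did not pass (log2 fold change 0.23 with SE 0.15, adjusted p = 0.277).

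Among 21 interferon gamma induced genes 4 fell and 2 rose (28.6%), with a median of -0.69 (2 higher and 4 lower with the length trend removed). Casp1, the inflammatory caspase, held 0.105, 0.281 and 0.505 CPM against 2.02, 3.795 and 6.49 CPM (log2 fold change -3.75 with SE 0.57, adjusted p = 0.00354), with 4.57, 3.73 and 3.81 CPM in naive organoids. Irf1, an interferon-responsive transcription factor, held 44.5, 56.8 and 70.4 CPM against 103, 96.8 and 97.05 CPM (log2 fold change -0.79 with SE 0.16, adjusted p = 0.00855). Both were lower in each C57Bl6 library than in any RAG2KO library. The 2 that rose were the adhesion molecule Icam1 (0.92, adjusted p = 0.00936) and the tryptophanyl-tRNA synthetase Wars (0.95, adjusted p = 0.0137), and Wars is also a member of the ATF4 list. Cxcl10, an interferon-induced chemokine, held 10.8, 2.36 and 6.77 CPM against 2.43, 5.43 and 4.12 CPM and did not pass (log2 fold change 0.74 with SE 0.503, adjusted p = 0.305).

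MHC class I genes showed a share near that of all genes. Of 26 tested, 5 fell and 1 rose (23.1%), with a median of -0.206, and 3 passed without C57Bl6 replicate 1. The proteasome activator Psme1 held 80.9, 82.2 and 74.1 CPM against 119.6, 124 and 104 CPM (log2 fold change -0.55 with SE 0.12, adjusted p = 0.009796). The classical heavy chains H2-K1 (-0.087, adjusted p = 0.651) and H2-D1 (0.009, adjusted p = 0.965) and the light chain B2m (-0.24, adjusted p = 0.262) did not pass. B2m held 71.3, 80.2 and 68.1 CPM against 80.4, 107 and 72.2 CPM and 33.6, 34.2 and 32.3 CPM in naive organoids, so the recipients overlapped and both lay above naive. The peptide transporter Tap1 held 1.21, 3.198 and 1.26 CPM against 1.21, 4.96 and 4.68 CPM (log2 fold change -0.94 with SE 0.56, adjusted p = 0.237), and the immunoproteasome subunit Psmb8 held 0.786, 5.67 and 1.41 CPM against 1.42, 1.64 and 0.936 CPM (log2 fold change 0.97 with SE 0.78, adjusted p = 0.3801; log2 fold change -0.27 without C57Bl6 replicate 2). The Qa-region gene H2-Q2 held 2.62, 2.3003 and 4.697 CPM against 5.32, 12.9 and 28.3 CPM (log2 fold change -2.27 with SE 0.53, adjusted p = 0.0157), and its reads may be divided with its near copies. The checkpoint ligand gene Cd274, which encodes PD-L1, held 2.78, 1.74 and 1.06 CPM against 0.944, 5.96 and 2.31 CPM and did not pass (log2 fold change -0.73 with SE 0.62, adjusted p = 0.409). Nlrc5, the transactivator of class I genes, had too few counts to test.

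The lists of cytokines and of inhibitory ligands had called shares below that of all genes. Of 27 chemokine and cytokine genes 4 fell and 0 rose (14.8%). Il15, a growth factor of natural killer and memory T cells, held 1.68, 2.41 and 1.16 CPM against 5.32, 7.71 and 8.36 CPM (log2 fold change -2.03 with SE 0.32, adjusted p = 0.00383), and Il18, the cytokine matured by caspase 1, held 1.31, 1.51 and 1.92 CPM against 12.5, 5.26 and 3.87 CPM (log2 fold change -2.18 with SE 0.45, adjusted p = 0.00968). Both were lower in each C57Bl6 library than in any RAG2KO library. Of 21 immune inhibitory ligands and enzymes 2 fell and 1 rose (14.3%; 1 call without C57Bl6 replicate 3). Cd55, the complement decay-accelerating factor, held 71.4, 35.7 and 44.4 CPM against 135, 93.3 and 185 CPM (log2 fold change -1.44 with SE 0.31, adjusted p = 0.0119). The B7 family ligand Cd276 held 44.1, 49.5 and 58.9 CPM against 33.1, 34.9 and 34.2 CPM (log2 fold change 0.58 with SE 0.13, adjusted p = 0.0142; adjusted p = 0.0538 without C57Bl6 replicate 3).

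Metallothioneins, small cysteine-rich proteins that bind zinc and copper, were lower in organoids from C57Bl6 recipients, while 2 zinc importers were higher. Of 13 metallothionein and zinc handling genes 4 fell and 2 rose (46.2%), and each of the 6 kept its call with any 1 library left out. The 4 that fell were the 4 metallothioneins. Mt4 is described above. Mt3 held 1.05, 1.23 and 6.57 CPM against 27.97, 33.05 and 75.5 CPM (log2 fold change -3.93 with SE 0.69, adjusted p = 0.00582), with C57Bl6 replicate 3 highest of its group. Mt2 held 37.8, 18.5 and 64.2 CPM against 142, 244 and 262 CPM, with 207, 206 and 138 CPM in naive organoids (log2 fold change -2.42 with SE 0.42, adjusted p = 0.005805). Mt1 held 115, 94.8 and 146 CPM against 183, 224 and 256 CPM, with 258, 277 and 225 CPM in naive organoids (log2 fold change -0.8997 with SE 0.18, adjusted p = 0.00858). In Mt1, Mt2 and Mt3 the recipients did not overlap, and in Mt1 and Mt2 each C57Bl6 library lay below every naive library too. All 4 are short transcripts, of the kind that were lower in C57Bl6 as a class. With the length trend removed the log2 fold changes were -5.59 (Mt4), -3.2996 (Mt3), -1.77 (Mt2) and -0.57 (Mt1), and Mt1 no longer passed (adjusted p = 0.0774). The importers Slc39a14 (45.9, 45.8 and 35.8 CPM against 19.3, 20.03 and 18.6 CPM; log2 fold change 1.14 with SE 0.15, adjusted p = 0.00255) and, chosen with Mt1 after their values were seen, Slc39a10 (32.9, 39.2 and 41.1 CPM against 26.1, 21.3 and 19.3 CPM; log2 fold change 0.76 with SE 0.15, adjusted p = 0.00751) rose.

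The 250 bases before the start of each metallothionein are shown because these neighbouring genes fell together. They were searched on both strands for the core of the metal response element, TGCACNC or TGCGCNC, the element bound by the zinc-sensing factor MTF1. The windows are chr8:94178839-94179088 for Mt1, chr8:94172368-94172617 for Mt2, chr8:94152357-94152606 for Mt3 and chr8:94136954-94137203 for Mt4, all on the plus strand of GRCm38.p6 in RefSeq, with matches in capitals.
Mt1: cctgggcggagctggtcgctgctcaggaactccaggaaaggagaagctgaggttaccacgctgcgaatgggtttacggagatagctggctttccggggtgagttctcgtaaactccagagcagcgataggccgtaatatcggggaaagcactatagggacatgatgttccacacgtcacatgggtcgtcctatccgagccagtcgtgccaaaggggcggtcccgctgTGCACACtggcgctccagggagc
Mt2: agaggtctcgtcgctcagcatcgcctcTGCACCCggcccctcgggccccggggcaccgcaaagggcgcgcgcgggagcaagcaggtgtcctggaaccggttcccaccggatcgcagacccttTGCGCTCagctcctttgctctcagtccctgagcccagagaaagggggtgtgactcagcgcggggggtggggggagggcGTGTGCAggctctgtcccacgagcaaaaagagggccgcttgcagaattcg
Mt3: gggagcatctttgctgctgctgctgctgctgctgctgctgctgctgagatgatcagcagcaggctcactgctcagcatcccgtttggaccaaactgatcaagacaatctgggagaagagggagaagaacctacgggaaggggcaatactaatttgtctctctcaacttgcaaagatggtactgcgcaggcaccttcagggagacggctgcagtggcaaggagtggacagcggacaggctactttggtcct
Mt4: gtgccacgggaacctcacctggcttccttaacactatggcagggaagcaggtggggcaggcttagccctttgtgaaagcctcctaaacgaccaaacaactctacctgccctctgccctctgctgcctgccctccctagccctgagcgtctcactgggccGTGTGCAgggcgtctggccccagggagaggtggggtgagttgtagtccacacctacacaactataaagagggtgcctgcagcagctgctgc
Mt1 had 1 match, Mt2 had 3, Mt4 had 1, and the letters searched are not in the window of Mt3. The motif is common, since 7011 of 32536 windows (21.5%) held it, and 3 of the 7 windows of the other tested members of the list did.

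**Figure D4:**
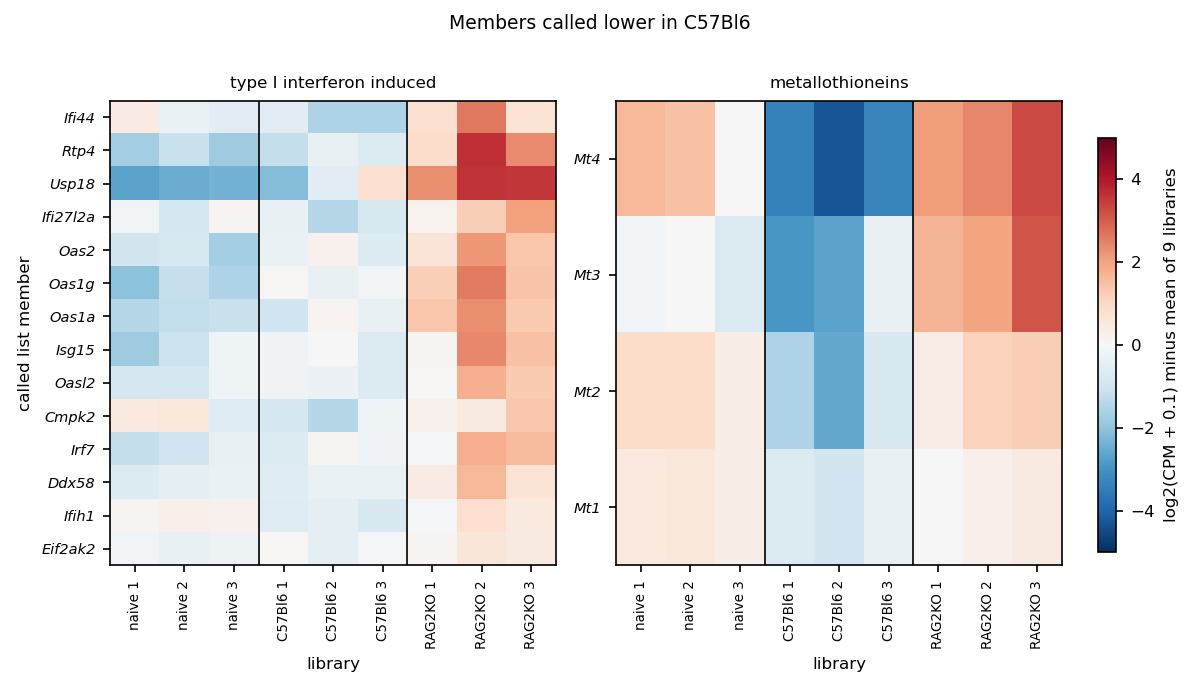
Heat maps of the members called lower in C57Bl6, for type I interferon induced genes (left) and metallothioneins (right). Columns are 9 libraries (3 naive, 3 C57Bl6, 3 RAG2KO), rows are genes, and colour is log2(CPM + 0.1) minus the mean of the 9 libraries. The highest library is RAG2KO replicate 2 in 12 and RAG2KO replicate 3 in 2 of the 14 interferon genes, and Mt4 is lowest in the 3 C57Bl6 libraries.

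Genes of the ATF4 amino acid response, which is induced when amino acids are short or the endoplasmic reticulum is stressed, were higher in organoids from C57Bl6 recipients. Of 28 tested, 17 rose, 0 fell and 11 did not pass (60.7%), with a median of 0.65. The list had 13 to 17 calls with a library left out, 13 of the 17 kept their call in all 6 of these fits, and 17 rose with the length trend removed. Slc7a5, the large neutral amino acid transporter, held 250.2, 239 and 229.6 CPM against 67.5, 69.5 and 66.8 CPM, with 143, 199.8 and 191 CPM in naive organoids (log2 fold change 1.82 with SE 0.14, adjusted p = 0.000302). The cationic amino acid transporter Slc7a1 held 131, 117 and 139.96 CPM against 53.98, 61.8 and 56.8 CPM (log2 fold change 1.17 with SE 0.12, adjusted p = 0.00135). Both were tight within each group. The serine and folate enzymes followed, with Shmt2 at 177, 209 and 216 CPM against 103, 75.2 and 106 CPM (log2 fold change 1.08 with SE 0.15, adjusted p = 0.00272) and Phgdh, the first enzyme of serine synthesis, at 604, 544 and 455 CPM against 282, 199 and 281 CPM (log2 fold change 1.07 with SE 0.16, adjusted p = 0.00354). Against naive, 8 of the 28 were lower in the C57Bl6 group (median -0.404), and 23 were lower and 1 higher in the RAG2KO group (median -1.085).

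Most called chaperone genes were higher in organoids from C57Bl6 recipients too. Of 22 endoplasmic reticulum chaperone and unfolded protein response genes 5 rose and 0 fell (22.7%, near the share of all genes; 2 calls without C57Bl6 replicate 1, 3 without RAG2KO replicate 2 and 1 without RAG2KO replicate 3). Hyou1, an Hsp70-type chaperone, held 210.1, 157 and 188 CPM against 104, 91.4 and 105 CPM (log2 fold change 0.89 with SE 0.14, adjusted p = 0.00404). Of 18 heat shock genes 8 rose and 2 fell (55.6%), with 5 calls without RAG2KO replicate 2 and 6 without RAG2KO replicate 3, and 7 rose and 2 fell with the length trend removed. Hsp90ab1, a cytosolic chaperone, held 3458, 3088 and 3408 CPM against 2245, 1818 and 2231 CPM (log2 fold change 0.66 with SE 0.13, adjusted p = 0.00729), and the heat shock factor Hsf1 held 40.4, 49.1 and 42.2 CPM against 31.2, 26.04 and 26.5 CPM (log2 fold change 0.65 with SE 0.14, adjusted p = 0.0109). Hspb8, a small heat shock protein, went the other way, with 6.498, 5.78 and 9.55 CPM against 21.4, 36.2 and 32.6 CPM (log2 fold change -2.05 with SE 0.26, adjusted p = 0.00234).

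Cell cycle genes were higher in organoids from C57Bl6 recipients than in those from RAG2KO recipients. Of 28 mitosis and spindle genes 16 rose, 0 fell and 12 did not pass (57.1%), with a median of 0.569. Foxm1, the transcription factor of the mitotic programme, held 58.5, 75.9 and 70.01 CPM against 31.1, 26.3 and 23.3 CPM (log2 fold change 1.34 with SE 0.16, adjusted p = 0.002001). Plk1, a mitotic kinase, held 115, 124 and 144 CPM against 79.1, 46.4 and 65.9 CPM (log2 fold change 0.999 with SE 0.18, adjusted p = 0.00575), and anillin, Anln, 160.03, 185 and 167 CPM against 114, 84.1 and 90.7 CPM (log2 fold change 0.82 with SE 0.14, adjusted p = 0.00479). The recipients did not overlap in these genes, and RAG2KO replicate 1 was the highest of its group. Of 30 DNA replication and S phase genes 12 rose and 0 fell (40%), with a median of 0.516. Pold1, the catalytic subunit of polymerase delta, held 53.4, 54.1 and 49.04 CPM against 29.9, 25.1 and 27.9 CPM (log2 fold change 0.92 with SE 0.12, adjusted p = 0.00255), and the replication licensing factor Cdt1 57.8, 55.4 and 54.8 CPM against 30.6, 22.9 and 27.8 CPM (log2 fold change 1.05 with SE 0.16, adjusted p = 0.00354). Without C57Bl6 replicate 3 the lists had 7 and 7 calls, and without RAG2KO replicate 3 they had 10 and 7. With the length trend removed 13 mitosis genes rose and 1 fell, and 12 replication genes rose. Against naive, the C57Bl6 group had medians of -0.084 over the mitosis and 0.008 over the replication genes. The RAG2KO group had medians of -0.724 and -0.459, with 18 mitosis genes lower and 1 higher and 11 replication genes lower. The share of dividing cells and the amount of RNA per dividing cell cannot be told apart in these bulk samples.

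Genes listed as targets of YAP and TAZ, the coactivators that the Hippo pathway holds in check, were higher in organoids from C57Bl6 recipients. The list also holds parts of the pathway itself, such as Tead1 and Wwc1, and pathway activity was not tested. Of 24 tested, 11 rose, 0 fell and 13 did not pass (45.8%), with a median of 0.966, and 7 rose without RAG2KO replicate 1 and 7 without RAG2KO replicate 3. Ptpn14, a phosphatase that binds YAP, held 61.7, 82.2 and 77.6 CPM against 25.1, 31.2 and 29.9 CPM (log2 fold change 1.36 with SE 0.16, adjusted p = 0.00174). Tead1, the DNA-binding partner of YAP, held 55.4, 48.4 and 53.8 CPM against 28.04, 23.9 and 25.7 CPM (log2 fold change 1.02 with SE 0.16, adjusted p = 0.003697). The WW-domain gene Wwc1 (KIBRA), an upstream activator of the pathway, held 140.1, 169 and 122 CPM against 52.4, 67.1 and 61.6 CPM (log2 fold change 1.25 with SE 0.201, adjusted p = 0.00392), and the exchange factor Arhgef17 62.8, 87.6 and 77.8 CPM against 22.5, 30.3 and 26.6 CPM (log2 fold change 1.52 with SE 0.25, adjusted p = 0.00392). The C57Bl6 lines were above the RAG2KO and the naive means in each. With the length trend removed the log2 fold changes were 0.996 (Ptpn14, 10746 bases), 0.637 (Tead1, 9964 bases), 1.11 (Wwc1, 4531 bases) and 1.17 (Arhgef17, 10190 bases), and each still passed. Transcripts of the list are long as a class, with a median of 4479 bases, and with the length trend removed 8 rose and the median was 0.723. Against naive, 14 were higher and 0 lower in the C57Bl6 group, and 4 were higher and 2 lower in the RAG2KO group.

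**Figure D5:**
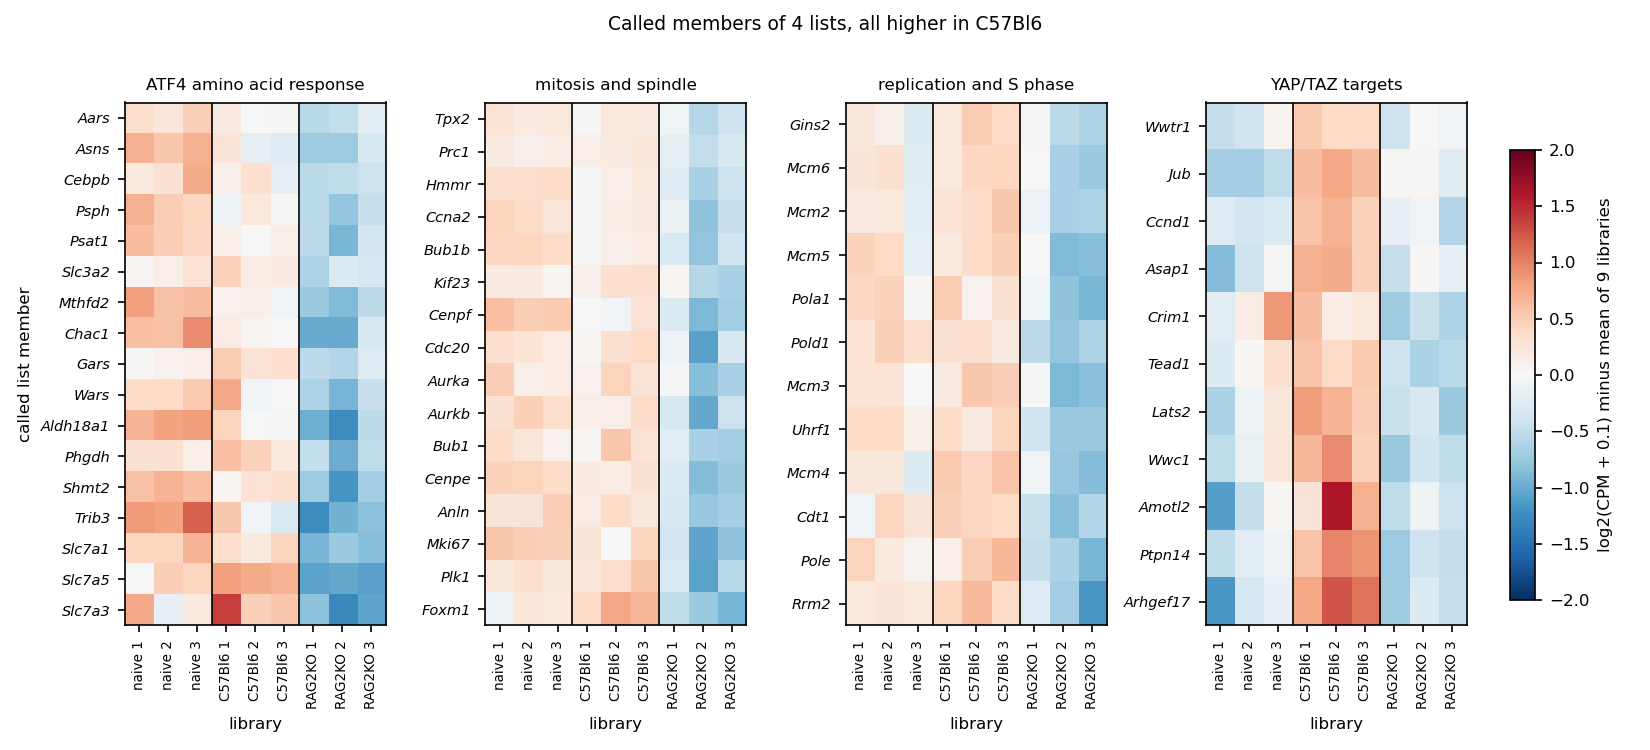
Heat maps of the called members of 4 lists, ATF4 amino acid response (17 genes), mitosis and spindle (16), DNA replication and S phase (12) and YAP/TAZ targets (11), in 9 libraries (3 naive, 3 C57Bl6, 3 RAG2KO). Colour is log2(CPM + 0.1) minus the mean of the 9 libraries. RAG2KO columns hold the lowest values in the first 3 panels, RAG2KO replicate 1 less so among replication genes, and C57Bl6 columns hold the highest in the YAP/TAZ panel except for Crim1.

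Lgr5, the R-spondin receptor that marks intestinal stem cells, held 64.1, 44.9 and 53.03 CPM in the C57Bl6, 20.2, 8.17 and 22.3 CPM in the RAG2KO and 50.9, 71.7 and 50.2 CPM in the naive libraries (log2 fold change 1.68 with SE 0.33, adjusted p = 0.00844). The C57Bl6 lines overlapped the naive ones, and the RAG2KO lines lay below both. Among 21 stem cell markers 5 rose and 0 fell (23.8%, the share of all genes), and 2 rose with the length trend removed, Lgr5 and Tnfrsf19 (172, 111 and 129 CPM against 61.1, 90.7 and 58.4 CPM; log2 fold change 0.97 with SE 0.21, adjusted p = 0.0106). The list had 2 higher and 1 lower without C57Bl6 replicate 1 or RAG2KO replicate 2, 3 higher without RAG2KO replicate 1 or 3, and 2 higher without C57Bl6 replicate 3. Ascl2, a further stem cell transcription factor, held 38.04, 41.3 and 55.4 CPM against 57.9, 24.7 and 83.4 CPM and did not pass (log2 fold change -0.301 with SE 0.39, adjusted p = 0.597).

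Of 25 Wnt targets and feedback antagonists 5 rose and 5 fell (40%). The growth genes Myc (148, 149.8 and 137 CPM against 80.8, 66.6 and 82.5 CPM; log2 fold change 0.92 with SE 0.15, adjusted p = 0.00454) and Ccnd1 (643, 697 and 592 CPM against 386, 413 and 288 CPM; log2 fold change 0.83 with SE 0.15, adjusted p = 0.00521) were among those that rose. The 5 that fell encode inhibitors of the pathway, as do Znrf3 and Kremen1 among those that rose. Nkd1, which binds Dishevelled, held 32.2, 57.4 and 111 CPM against 223, 299 and 352 CPM, with 53.96, 62.4 and 28.9 CPM in naive organoids (log2 fold change -2.12 with SE 0.44, adjusted p = 0.0106). Dkk2, chosen after its values were seen, a secreted antagonist of the LRP coreceptors, held 197, 99.3 and 188 CPM against 286, 479 and 296 CPM, with 13.1, 12.4 and 10.4 CPM in naive organoids (log2 fold change -1.13 with SE 0.28, adjusted p = 0.0177). The other 3 that fell, Wif1, Apcdd1 and Notum, were also chosen so, as was Kremen1. Znrf3 (log2 fold change 0.51, adjusted p = 0.0365) kept its call without C57Bl6 replicate 2 but lost it without each of the other 5 libraries (adjusted p from 0.0673 to 0.125) and with the length trend removed (0.234). Kremen1 (log2 fold change 0.68, adjusted p = 0.02805) kept its call in 2 of the 6 fits with a library left out and lost it with the length trend removed (0.0693). Wif1 (adjusted p = 0.0539) and Notum (0.0560) lost their call without RAG2KO replicate 2, and Apcdd1 (0.0557) without RAG2KO replicate 3. In the 5 that fell the RAG2KO lines lay above the C57Bl6 lines with no overlap, as libraries did not overlap in 3227 of all 3295 called genes. Apc itself, altered in all these organoids, held 100.5, 57.5 and 83.997 CPM against 54.3, 57.9 and 59.5 CPM and did not pass (log2 fold change 0.495 with SE 0.18, adjusted p = 0.0673), though it did without C57Bl6 replicate 2 (adjusted p = 0.00983), with library totals (0.0367) and with voom (0.0446). With the length trend removed 3 Wnt genes rose and 5 fell.

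Of 21 absorptive colonocyte genes 5 fell and 1 rose in organoids from C57Bl6 recipients (28.6%, beside 24.0% of all genes), and 15 did not pass. The median was -0.922, and the same counts held with the length trend removed. The transmembrane mucin Muc13 held 7.18, 8.19 and 16.3 CPM in the C57Bl6, 113, 111 and 227 CPM in the RAG2KO and 278, 269 and 340.3 CPM in the naive libraries (log2 fold change -3.83 with SE 0.39, adjusted p = 0.00135). The carbonic anhydrase Car1 held 7.86, 8.58 and 33.2 CPM against 126, 111 and 157 CPM, with 114, 94.002 and 62.9 CPM in naive organoids (log2 fold change -2.99 with SE 0.53, adjusted p = 0.00612). Both were lower in each C57Bl6 library than in any RAG2KO or naive one. Cdx1, a homeobox factor of intestinal identity, held 0.472, 0.337 and 0.758 CPM against 3.91, 4.496 and 14.2 CPM and 11.6, 16.7 and 8.91 CPM in naive organoids (log2 fold change -3.82 with SE 0.58, adjusted p = 0.00354). Among 16 identity factors 2 fell and 2 rose (25%), with 2 calls without C57Bl6 replicate 3. Of 20 HOX genes 4 fell and 0 rose (20%; 2 calls without C57Bl6 replicate 1), all 4 from the Hoxb cluster, with Hoxb9 at 32.8, 31.5 and 36.4 CPM against 51.8, 55.4 and 64.8 CPM (log2 fold change -0.77 with SE 0.13, adjusted p = 0.00434) and Hoxb3 at 4.66, 6.28 and 8.94 CPM against 14.6, 15.3 and 15.3 CPM (log2 fold change -1.18 with SE 0.22, adjusted p = 0.00633).

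Among secretory lineages, 1 of 15 goblet cell genes fell and 0 rose (0 without C57Bl6 replicate 2 or RAG2KO replicate 3, 2 without C57Bl6 replicate 1 and 3 without RAG2KO replicate 2), and 1 of 6 Paneth cell genes fell and 0 rose (0 without C57Bl6 replicate 2 or RAG2KO replicate 3 and 2 without C57Bl6 replicate 1). By edgeR 0 of 8 enteroendocrine genes passed in either direction, with 2 at an unadjusted p under 0.05, and DESeq2 called 2 and voom 0. Tuft cell genes gave 1 higher and 2 lower of 9 (33.3%, beside 24.0% of all genes; 1 call without RAG2KO replicate 3), led by Ptgs1, the constitutive prostaglandin synthase, at 70.3, 156 and 106 CPM against 46.4, 52.2 and 24.1 CPM (log2 fold change 1.44 with SE 0.32, adjusted p = 0.0131). The 16 gastric and foregut genes gave 2 higher and 0 lower (4 calls without C57Bl6 replicate 2, 1 without C57Bl6 replicate 3 and 1 without RAG2KO replicate 2), led by the water channel Aqp5, which held 220.2, 129 and 113 CPM against 17.4, 5.197 and 8.98 CPM and 0, 0.0876 and 0.286 CPM in naive organoids (log2 fold change 3.88 with SE 0.47, adjusted p = 0.00252). Both recipients were above naive for Aqp5, and the C57Bl6 lines by more.

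Of 10 SOX family genes edgeR called 0, with 2 at an unadjusted p under 0.05, and DESeq2 and voom called 0 and 0. By edgeR 1 was lower with the length trend removed, and 1 without C57Bl6 replicate 3, RAG2KO replicate 1 or RAG2KO replicate 3. Sox2 had 362 counts in the RAG2KO against 2 in the C57Bl6 libraries, a ratio of 213.8. Its interval of 58.8 to 1772 covers counting error only, not the spread between lines. Sox11 went the other way, with 11 counts in the C57Bl6 against 0 in the RAG2KO libraries. Sox17, the SOXF factor of the endoderm that the series is about, held 18.4, 12.4 and 74.3 CPM in the C57Bl6, 22.2, 15.4 and 24.4 CPM in the RAG2KO and 0.214, 0.0438 and 0.0477 CPM in the naive libraries (log2 fold change 0.77 with SE 0.57, adjusted p = 0.3503). The recipients overlapped, and C57Bl6 replicate 3 was the highest of the 9 libraries. Without it the log2 fold change was -0.42 (adjusted p = 0.346). Fetal and regeneration genes gave 1 higher and 2 lower of 27 (11.1%; 1 higher and 0 lower with the length trend removed), and Ly6a (-0.34, adjusted p = 0.247) and Anxa1 (-0.27, adjusted p = 0.285) did not pass. Trp53 held 2.52, 2.58 and 2.27 CPM against 4.38, 2.86 and 3.18 CPM and did not pass (log2 fold change -0.498 with SE 0.296, adjusted p = 0.236). Rag2 had 1 count in the 6 libraries and was not tested.

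Among 16 keratins 2 rose and 1 fell (18.8%; 5 calls without C57Bl6 replicate 1, and 1 without C57Bl6 replicate 2, C57Bl6 replicate 3, RAG2KO replicate 2 or RAG2KO replicate 3). Krt15, a keratin of basal and slow-cycling epithelial cells, held 4.77, 6.34 and 4.85 CPM in the C57Bl6, 93.3, 84.8 and 84.3 CPM in the RAG2KO and 5.93, 4.996 and 2.67 CPM in the naive libraries (log2 fold change -4.04 with SE 0.25, adjusted p = 7.49e-05). The C57Bl6 lines lay at the naive level and the RAG2KO lines far above. The SOX17OE libraries, which had no recipient, held 333.5 (constitutive) and 84.9 CPM (inducible) of Krt15. Among 28 epithelial junction genes 5 rose and 3 fell (28.6%; 5 calls without C57Bl6 replicate 3, without RAG2KO replicate 1 or without RAG2KO replicate 2, and 4 without RAG2KO replicate 3). E-cadherin, Cdh1, held 751, 489.9 and 554 CPM against 312, 308 and 311 CPM (log2 fold change 0.95 with SE 0.17, adjusted p = 0.00582), and the sealing claudin Cldn8 1.99, 3.65 and 5.86 CPM against 12.9, 13.7 and 16.3 CPM (log2 fold change -1.8997 with SE 0.34, adjusted p = 0.00543). Of 21 collagen and laminin genes 4 rose and 1 fell (23.8%; 3 and 0 without RAG2KO replicate 3). The basement membrane chains Col4a1 (349, 202 and 168 CPM against 63.1, 59.6 and 89.4 CPM; log2 fold change 1.76 with SE 0.31, adjusted p = 0.00582) and Col4a2 (323, 174 and 135 CPM against 51.8, 57.3 and 73.6 CPM; log2 fold change 1.79 with SE 0.36, adjusted p = 0.00914), which are transcribed from a shared promoter region, both rose.

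Of 27 TGF-beta and BMP response genes 5 rose and 6 fell (40.7%), with 7 calls without C57Bl6 replicate 1, RAG2KO replicate 1 or RAG2KO replicate 3 and 6 without C57Bl6 replicate 3, and 3 rose and 3 fell with the length trend removed. Bambi, a pseudoreceptor that blocks TGF-beta type receptors, held 9.12, 18.9 and 19.1 CPM against 82.6, 162 and 143 CPM, with 36.8, 32.1 and 32.2 CPM in naive organoids (log2 fold change -3.04 with SE 0.32, adjusted p = 0.00137). The receptor Tgfbr2 rose (214, 176 and 173 CPM against 82.02, 95.4 and 108 CPM; log2 fold change 0.98 with SE 0.21, adjusted p = 0.0101), and the inhibitory Smad6 fell (8.33, 8.19 and 9.34 CPM against 12.9, 19.7 and 15.97 CPM; log2 fold change -0.91 with SE 0.2001, adjusted p = 0.0118). Of 16 Notch genes 3 rose and 2 fell (31.2%; 3 calls without C57Bl6 replicate 1 or 2 and 2 without RAG2KO replicate 3), among them the ligand Jag2 at 141, 130.4 and 169 CPM against 79.3, 80.1 and 95.7 CPM (log2 fold change 0.79 with SE 0.16, adjusted p = 0.00907) and Hes6, an inhibitor of Hes1, at 80.5, 121 and 172 CPM against 332, 282 and 513 CPM (log2 fold change -1.595 with SE 0.34, adjusted p = 0.0107). All 24 EGF receptor pathway genes had a positive value, with a median of 0.552 beside 0.001 over all genes, but 3 passed (12.5%). With the length trend removed the median was 0.434 and 2 rose. Spry2, a feedback inhibitor of receptor tyrosine kinases, held 48.4, 56.4 and 41.01 CPM against 22.5, 23.01 and 20.02 CPM (log2 fold change 1.15 with SE 0.21, adjusted p = 0.00566). The insulin-like growth factor binding protein Igfbp4, which sequesters the growth factor, held 247, 235 and 126 CPM against 20.3, 33.6 and 20.4 CPM and 0.0715, 0 and 0 CPM in naive organoids (log2 fold change 3.03 with SE 0.31, adjusted p = 0.00135).

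Of 21 NF-kappaB targets 4 rose and 4 fell (38.1%; 5 calls without C57Bl6 replicate 1 or RAG2KO replicate 3 and 4 without C57Bl6 replicate 3). Of these targets 2 rose and 3 fell with the length trend removed (23.8%, beside 20.6% of all genes). Icam1 was among those that rose, at 28.2, 31.8 and 24.04 CPM against 17.1, 15.8 and 11.4 CPM, and Tnf, the cytokine, fell, at 7.18, 5.44 and 9.09 CPM against 17.8, 30.8 and 12.8 CPM (log2 fold change -1.499 with SE 0.32, adjusted p = 0.01097). Of 14 eicosanoid enzymes 2 rose and 3 fell (35.7%; 1 and 2 without RAG2KO replicate 3). Hpgd, which breaks down prostaglandin E2, held 8.38, 27.4 and 42.5 CPM against 305, 109 and 203 CPM, with 63.04, 56.6 and 35.4 CPM in naive organoids (log2 fold change -2.98 with SE 0.57, adjusted p = 0.00807). Pla2g10, a secreted phospholipase, held 2.72, 2.13 and 3.18 CPM against 11.1, 6.66 and 14.5 CPM (log2 fold change -1.999 with SE 0.41, adjusted p = 0.00907). The prostaglandin synthase Ptgs1, described above, rose.

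Of 28 glycolysis and hypoxia genes 6 rose and 1 fell (25%), and the counts were the same with the length trend removed. The glucose transporter Slc2a1 held 426, 303 and 319 CPM against 125, 145 and 111 CPM, with 278, 325 and 492 CPM in naive organoids (log2 fold change 1.46 with SE 0.22, adjusted p = 0.00354), and hexokinase 2, Hk2, 193, 121 and 192 CPM against 62.3, 92.6 and 51.5 CPM (log2 fold change 1.29 with SE 0.27, adjusted p = 0.00954). Bnip3, a mitophagy receptor induced by hypoxia, fell (291, 302 and 250.4 CPM against 407, 671 and 653 CPM; log2 fold change -1.04 with SE 0.18, adjusted p = 0.00531). Of 23 cholesterol and fatty acid synthesis genes 5 rose and 6 fell (47.8%; 7 calls without C57Bl6 replicate 3 or RAG2KO replicate 2). Squalene synthase, Fdft1, held 243, 261 and 250.1 CPM against 417, 426 and 429.97 CPM (log2 fold change -0.76 with SE 0.102, adjusted p = 0.00261).

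Respiratory chain and ribosomal protein genes are mostly short transcripts, and their medians moved close to 0 with the length trend removed. By construction the removal moves short transcripts as a class in that direction. Of 40 oxidative phosphorylation genes 11 fell and 1 rose (30%), with a median of -0.319 and a median length of 1387 bases. Cox7c, a subunit of cytochrome oxidase, held 206, 149 and 198 CPM against 447, 329 and 415 CPM (log2 fold change -1.11 with SE 0.19, adjusted p = 0.00494). With the length trend removed 5 fell and 3 rose, the median was -0.051, and Cox7c had a log2 fold change of -0.601 (adjusted p = 0.0483). The count was 6 without C57Bl6 replicate 1 or RAG2KO replicate 1 and 5 without C57Bl6 replicate 3. Of 50 cytosolic ribosomal protein genes 10 fell and 0 rose (20%), with a median of -0.33, and with the trend removed 7 fell and 6 rose, with a median of -0.054. Rps23, a protein of the small subunit's decoding centre, held 1004, 846 and 968 CPM against 1847, 1390.1 and 1857 CPM (log2 fold change -0.85 with SE 0.15, adjusted p = 0.00566). Rps23 and Cox7c lie on chromosome 13, whose genes were low in C57Bl6 replicate 2, and that library was the lowest for both. The count ranged from 3 without C57Bl6 replicate 3 to 20 without C57Bl6 replicate 2, with 4 without C57Bl6 replicate 1 or RAG2KO replicate 3 and 5 without RAG2KO replicate 1.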

How the data were processed

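Poly(A) RNA of 11 mouse organoid cultures was sequenced after directional library preparation, per the labels' protocols. The deposited values are expected counts per gene, made by the authors with Bowtie and RSEM on mm9, per the submitters' processing notes, with versions not given in the sources used here. They were rounded to whole counts. RSEM divides reads between similar genes by estimate, so near copies are uncertain. Of the names, 25 are dates left by a spreadsheet and were not described.

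All 11 libraries entered 1 fit of edgeR's quasi-likelihood test (edgeR 4.0.16, R 4.3.3, filterByExpr, TMM, robust), with 5 groups, 6 residual degrees of freedom and Benjamini-Hochberg adjustment over the 13720 genes at 0.05. Every adjusted p in the text comes from it unless another tool, scaling, set of libraries or the removal of the length trend is named. Against simulated counts for 13338 genes it recovered 57% of 2-fold and 95% of 4-fold changes, with 5 false calls among 157. The changed genes, 100 of each size, were drawn from those with a mean above 5 CPM. The recovery therefore does not cover genes of lower level. No length trend or Rn45s difference was simulated. Alternatives were other scalings and filters, DESeq2 1.42.0, voom (limma 3.58.1), fits of fewer libraries, a replicate block, the Rn45s share as covariate and, chosen after seeing the data, the removal of each library's transcript length trend.

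The comparison and its 53 gene lists (1256 entries, 1246 matched, 5 of them under an older symbol) were chosen with earlier results of these data known. Genes named are a fixed panel, the 12 largest rises and 12 largest falls among calls kept with any 1 library left out (no overlap, and 5 CPM or more on average where higher), the first 4 called members of each list and the 6 genes of widest range within a group. Others are said to be chosen after their values were seen. The promoter sequences are from RefSeq on GRCm38.p6, and no coordinate of mm9 was used. The titles' replicate numbers do not pair the groups.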

Additional observations from a re-analysis of the deposited data

Results flagged for a closer look

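In 3 of the genes described above the tumour-derived groups moved away from the naive level in opposite directions, each past the threshold in edgeR's quasi-likelihood test with Benjamini-Hochberg adjustment, and the difference between the recipients passed as well. Mt4, the metallothionein, was lower than naive in the C57Bl6 group (log2 fold change -4.83, adjusted p = 0.000588) and higher in the RAG2KO group (1.496, adjusted p = 0.0341), with a difference of -6.32 between them (adjusted p = 0.00111). Man1c1, a mannosidase that trims glycans in the Golgi, held 0.314, 1.403 and 1.01 CPM in the C57Bl6, 2.79, 3.33 and 1.86 CPM in the naive and 15.03, 13.8 and 23.4 CPM in the RAG2KO libraries. Its log2 fold changes over naive were -1.55 (adjusted p = 0.0472) and 2.71 (adjusted p = 0.002205), and the difference was -4.26 (adjusted p = 0.00144). Bambi, the TGF-beta pseudoreceptor, was lower than naive in the C57Bl6 group (-1.102, adjusted p = 0.0372) and higher in the RAG2KO group (1.94, adjusted p = 0.002205), with a difference of -3.04 (adjusted p = 0.00137). Both tumour-derived groups were compared with the same 3 naive libraries.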

How the results depend on the processing

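The count of called genes was 3295 and stayed within 1.5 times that under each scaling, filter and tool tried, from 2288 with the 6 tumour-derived libraries alone to 3959 with DESeq2. It was 3201 without genes of chromosome 13. It fell to 960 with the replicate number as a block and to 2 with the Rn45s share as a covariate. Without 1 library it ranged from 1857 (without C57Bl6 replicate 3) to 2912 (without C57Bl6 replicate 2), with 2018 without RAG2KO replicate 3. The replicate numbers do not show pairing, since the deviations of same-numbered libraries correlated at -0.184, 0.133 and 0.062 across genes, which are not independent replicates, and not each library correlated best with its own number. Of 186 named genes with a test, 165 were on the same side of the threshold once the length trend was removed, 20 no longer passed and 1 newly did. With the Rn45s covariate 23 were, 161 no longer passed and 2 changed sign, Cadps (-0.26) and Krt80 (-0.72), and the cause was not tested. The number of lists with a called share above that of all genes was 22, and 22 to 31 under the alternatives. The self-test recovered fewer 2-fold than 4-fold changes, so smaller differences in single genes can be missed with 3 libraries a group.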

Other observations

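The complement and acute phase list gave 1 higher and 2 lower of 11 (27.3%, beside 24.0% of all genes; 1 call without RAG2KO replicate 3). Among p53 targets 2 of 23 rose and 2 fell (17.4%), with Gtse1, a G2 phase regulator of p53, at 32.9, 37.3 and 40.5 CPM in the C57Bl6 against 25.2, 13.7 and 16.3 CPM in the RAG2KO libraries (log2 fold change 1.003 with SE 0.21, adjusted p = 0.00923) and Sesn1, a stress-induced inhibitor of mTORC1, at 5.82, 8.98 and 8.28 CPM against 11.996, 14.8 and 15.5 CPM (log2 fold change -0.87 with SE 0.201, adjusted p = 0.0141). Of 17 endoderm and endothelial-type genes 2 rose and 1 fell (17.6%; 1 call without RAG2KO replicate 1), and Efnb2, a ligand of Eph receptors, held 46.5, 49.8 and 40.7 CPM against 19.9, 27.7 and 24.6 CPM (log2 fold change 0.92 with SE 0.1998, adjusted p = 0.0112). The placental growth regulator Phlda2 was the called gene among 13 imprinted genes (7.69%; 2 calls without C57Bl6 replicate 1, RAG2KO replicate 2 or RAG2KO replicate 3), at 37.99, 41.9 and 34.5 CPM against 26.8, 21.2 and 23.6 CPM (log2 fold change 0.68 with SE 0.15, adjusted p = 0.0121).

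Of 11 tested NK cell ligand genes 3 fell, Raet1e, Raet1a and Clec2d (27.3%, beside 24.0% of all genes), and the list had 1 call without C57Bl6 replicate 1, C57Bl6 replicate 3, RAG2KO replicate 2 or RAG2KO replicate 3 and with the length trend removed. Raet1e, a ligand of the activating receptor NKG2D, held 0.786, 1.12 and 0 CPM against 2.56, 5.37 and 2.99 CPM (log2 fold change -2.52 with SE 0.74, adjusted p = 0.03496), and did not pass without C57Bl6 replicate 1 (adjusted p = 0.058), RAG2KO replicate 2 (0.0832) or RAG2KO replicate 3 (0.0598). Its reads may be divided with near copies.

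Some genes ranged widely between lines of 1 recipient without a call. Nrn1, a neuritin gene, held 4.297, 0.112 and 10.2 CPM in the C57Bl6 and 0, 48.8 and 0.374 CPM in the RAG2KO libraries. Tm4sf20, a tetraspan membrane gene, held 37.8, 0.505 and 3.54 CPM and 12.5, 21.4 and 45.8 CPM, and transferrin, Trf, 51.7, 0.505 and 1.82 CPM and 1.95, 6.48 and 3.99 CPM. Amd1, Pisd-ps3 and BC002163 ranged as widely and have near copies between which reads may have been divided.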
